A study of Mus musculus with 3 samples.

Results

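Nmnat1, Macrod2 and Rbbp8 encode an enzyme that makes the substrate of PARP-1, an enzyme that removes ADP-ribose from proteins and a DNA repair factor, and PARP-1 ChIP-seq sites were listed in these 3 genes in mouse nucleus accumbens. The members are all sites that the authors' deposited table assigns to 1 of the 3 gene names, 6 sites out of 1727. Nmnat1 held 1 site, Macrod2 held 4 and Rbbp8 held 1. The genes were selected on the authors' listed changes and read counts of cocaine against saline, so the cocaine and saline values below describe them and carry no test.

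PARP-1 is a nuclear enzyme that consumes NAD+ to build chains of ADP-ribose on itself, on histones and on other proteins, above all at broken DNA. NMNAT1 makes NAD+ in the nucleus from nicotinamide mononucleotide and ATP. Once most of a chain has been cut away by the glycohydrolase PARG, MACROD2 is among the enzymes that take off the last ADP-ribose left on the protein. RBBP8, better known as CtIP, works with the MRE11 complex to trim the ends of DNA double-strand breaks, the step that opens the way to homologous recombination.

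The chronic cocaine group consisted of C57BL/6 mice injected intraperitoneally with 20 mg/kg cocaine once a day for 7 days, and the saline group of C57BL/6 mice injected with saline on the same schedule. Tissue was taken 30 min after the final dose. For each ChIP replicate nucleus accumbens punches of 10 mice were pooled, so differences between single mice and between the cell types of this region are averaged within a replicate. Ages are not given in the labels. The labels state 3 replicates per group, while the table held values for n = 2 cocaine and n = 3 saline replicates, which are the n of all values below. The columns headed treatment and control were read as cocaine and saline. A DNA input library was not analysed here. ChIP-seq gives no expression values, so the tissue label was not checked against marker genes. In bulk tissue, a change in the number of cells of a type and a change in occupancy per cell cannot be told apart.

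Over the 1727 sites the libraries held 61292 to 82360 reads after cocaine and 46406 to 55084 after saline. A normalized read count is the number of reads in a site after the authors' scaling, and dividing by the value of 1 read in each library (0.822 to 1.14 normalized reads) gave back whole reads at every site. The total depth of the libraries is not given in the sources used here. Most listed sites were higher after cocaine, so the totals over them do not rank the libraries by depth. By the value of 1 read, relative depth was 100.0 and 72.3% of the deepest library in the cocaine replicates. In the saline replicates it was 77.4, 90.1 and 75.2%. Every value below rests on few reads, 1 to 23 per replicate at the 6 sites. Intervals marked as counting intervals are exact 95% intervals of the cocaine to saline ratio from pooled reads. They hold counting error alone, because pooling the reads leaves out variation between replicates. The SEs of log2 fold changes come from limma's moderated SD, which draws on all 1727 listed sites. These sites were listed on the same values, so such an SE can be smaller than counting error. It does not give the full uncertainty of a change. Amplified reads without molecular identifiers need not be separate molecules, so even the counting error may be understated. Because the sites were listed on this same contrast, their counting intervals tend to lie away from a ratio of 1 and are no test.

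The study set cocaine against saline to find where PARP-1 binding changes with repeated drug exposure. Of the 6 sites, 3 had more PARP-1 signal after cocaine and 3 had less. The Nmnat1 site and the middle pair of Macrod2 sites were the higher ones, by 2.85-fold to 3.75-fold in mean count. The outer pair of Macrod2 sites and the Rbbp8 site were the lower ones, by 3.98-fold to 5.62-fold. Over all listed sites 92.9% were higher and 7.06% lower, and among sites in or near genes 2.86% were lower. Because direction entered the choice of these genes, nothing is read from the difference between their split and the table's. The cocaine and saline replicates did not overlap at any of the 6 sites, as at 99.0% of all listed sites.

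**Figure D1:**
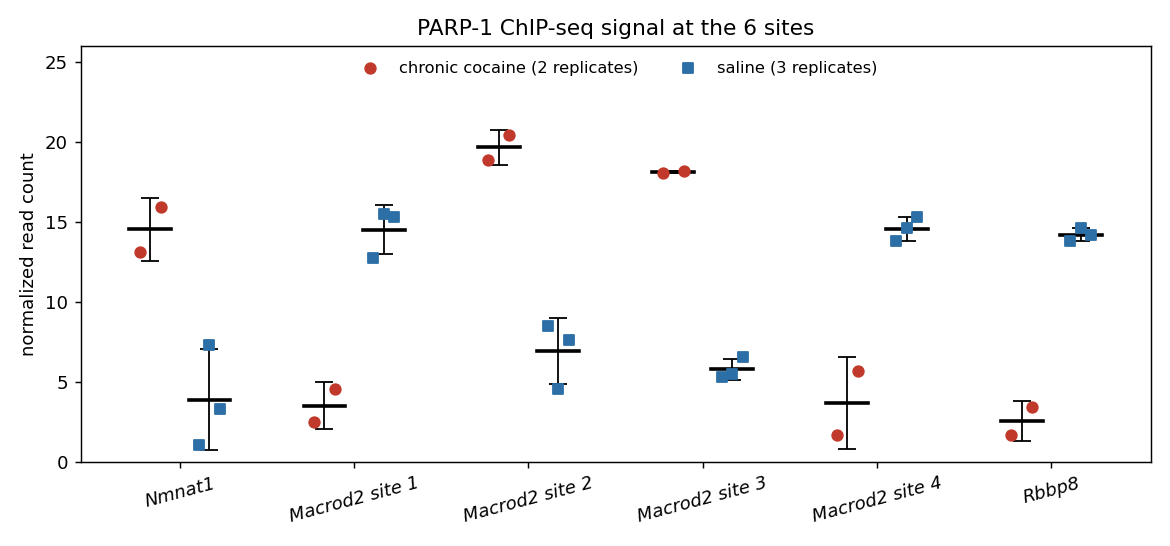
Normalized read count (vertical axis) of each replicate at the 6 sites, with cocaine replicates as red circles and saline replicates as blue squares; black lines give the mean and error bars the SD (n = 2 and n = 3). At the Nmnat1 site and Macrod2 sites 2 and 3 both cocaine replicates lie above all saline replicates, and at Macrod2 sites 1 and 4 and Rbbp8 both lie below.

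Nmnat1, which encodes the nuclear enzyme of the last step of NAD+ synthesis, held a single site at positions 148856301 to 148857300 of chromosome 4 in mm9. The authors' annotation places it in their class of promoters within 3 kb of a start. The gene (transcript NM_133435) lies on the minus strand over 16.4 kb, and the site covers bases 1950 to 2949 downstream of its start, so it is inside the transcribed unit and not upstream of it. Its normalized read count was 13.14 and 15.91 in the cocaine replicates, against 1.06, 7.29 and 3.28 in the saline replicates. Both cocaine values exceeded every saline value, and the saline values differed most among themselves, with 1, 8 and 3 reads behind them. The mean was 14.5 ± 1.96 after cocaine (SD, n = 2) and 3.88 ± 3.16 after saline (SD, n = 3). That is a 3.75-fold higher mean count, with a counting interval of 1.75-fold to 7.55-fold, and a log2 fold change of 1.89 ± 0.59 (SE, limma on log2(value + 1)). The SE was the widest of the 6 sites.

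The Nmnat1 promoter is shown because this is the member site nearest to a start, and the window gives the sequence around that start. RefSeq holds 2 overlapping windows for the gene, each from 250 bases before to 50 bases after a start. The first, on the minus strand of GRCm38.p6 at chr4:149485161-149485460, reads 5′ to 3′ as follows, with each CG pair in capitals.
Nmnat1 promoter: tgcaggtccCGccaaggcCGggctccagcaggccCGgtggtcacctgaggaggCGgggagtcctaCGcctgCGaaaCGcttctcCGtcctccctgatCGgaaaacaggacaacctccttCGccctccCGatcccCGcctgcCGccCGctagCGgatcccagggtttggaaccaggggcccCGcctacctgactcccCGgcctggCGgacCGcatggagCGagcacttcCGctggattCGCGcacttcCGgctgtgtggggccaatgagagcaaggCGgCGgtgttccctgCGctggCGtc

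The window holds 28 CG pairs, which read the same on both strands, and 69.0% of its bases are G or C. Over the 32851 RefSeq promoter windows of the same length, the median was 7 CG pairs and 52.7% G or C. A CG pair occurred in 94.6% of those windows, and 14.2% held at least 28. The Nmnat1 start thus lies in CG-dense sequence. The listed site itself begins 1950 bases further into the gene by the mm9 annotation, so none of these letters were measured as part of it. In the same RefSeq annotation the Nmnat1 span contains the gene Tmem274 and overlaps Lzic at its edge, so the assignment of the site to Nmnat1 is the authors'.

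The authors' enrichment over background, a ratio deposited for each group, was 5.67 after cocaine and 1.56 after saline at the Nmnat1 site. It was the largest of the 6 sites in the cocaine group. Among higher sites with a mean count under 100, 9.51% had a larger enrichment after cocaine, and the median was 2.64. Dividing the mean count by the enrichment gives the background level the authors used, 2.56 normalized reads after cocaine and 2.49 after saline, against medians of 6.15 and 5.92 over those higher sites. The Nmnat1 site therefore combined a count near the lowest listed with a low background. The nearest listed sites on the chromosome were 1477.5 kb and 772.7 kb away, outside genes, and both were higher after cocaine.

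Macrod2, the gene of the mono-ADP-ribose hydrolase, held 4 sites, numbered here from the start of the gene, and they pointed both ways. The gene (transcript NM_001013802, plus strand, chromosome 2) spans 1994.6 kb in mm9. Sites 1 and 4 were lower after cocaine and sites 2 and 3, which lie between them, were higher. All 4 are annotated as gene body, and exons and introns were not assigned here. No site centre lay nearer to the start than 792.3 kb. In RefSeq's GRCm38.p6 annotation the span also contains Flrt3, which encodes a leucine-rich repeat adhesion protein, and 5 noncoding genes or pseudogenes.

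Macrod2 site 1 (141013001 to 141014000, 792.3 kb from the start) had 2.46 and 4.55 normalized reads in the cocaine replicates, against 12.74, 15.50 and 15.28 in the saline replicates. Every cocaine value lay below every saline value, with a gap of 8.19 normalized reads between the ranges. The mean was 3.505 ± 1.48 after cocaine and 14.5 ± 1.53 after saline, 4.14-fold lower after cocaine (counting interval 1.94-fold to 11.5-fold), with a log2 fold change of -1.82 ± 0.30 (SE).

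Macrod2 site 2 (141654301 to 141655300, 1433.6 kb from the start) had 18.89 and 20.45 normalized reads in the cocaine replicates, against 8.50, 4.56 and 7.64 in the saline replicates. Both cocaine values were more than 10 normalized reads above the highest saline value. Its mean was 19.7 ± 1.10 after cocaine and 6.90 ± 2.07 after saline, 2.85-fold higher (counting interval 1.65-fold to 5.20-fold), with a log2 fold change of 1.42 ± 0.31. The fold was the smallest of the 6 sites, although its cocaine count was the highest of them.

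Macrod2 site 3 (142004401 to 142005500, 1783.8 kb from the start) had 18.07 and 18.18 normalized reads in the cocaine replicates, against 5.31, 5.47 and 6.55 in the saline replicates. Within each group the normalized counts lay close to each other, with a gap of 11.52 between the ranges. The 2 cocaine values came from 22 and 16 reads, so their closeness after scaling does not measure how well replicates repeat. The mean was 18.1 ± 0.078 after cocaine and 5.78 ± 0.67 after saline, 3.14-fold higher (counting interval 1.73-fold to 5.95-fold), with a log2 fold change of 1.50 ± 0.23.

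Macrod2 site 4 (142196501 to 142197600, 1975.9 kb from the start) had 1.64 and 5.68 normalized reads in the cocaine replicates, against 13.80, 14.59 and 15.28 in the saline replicates. The cocaine values, from 2 and 5 reads, differed by more than 3-fold, and both lay below all saline values. The mean was 3.66 ± 2.86 after cocaine and 14.6 ± 0.74 after saline, 3.98-fold lower after cocaine (counting interval 1.94-fold to 11.5-fold), with a log2 fold change of -1.89 ± 0.42. Without cocaine replicate 1 that log2 fold change was -1.22, and without cocaine replicate 2 it was -2.56.

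**Figure D2:**
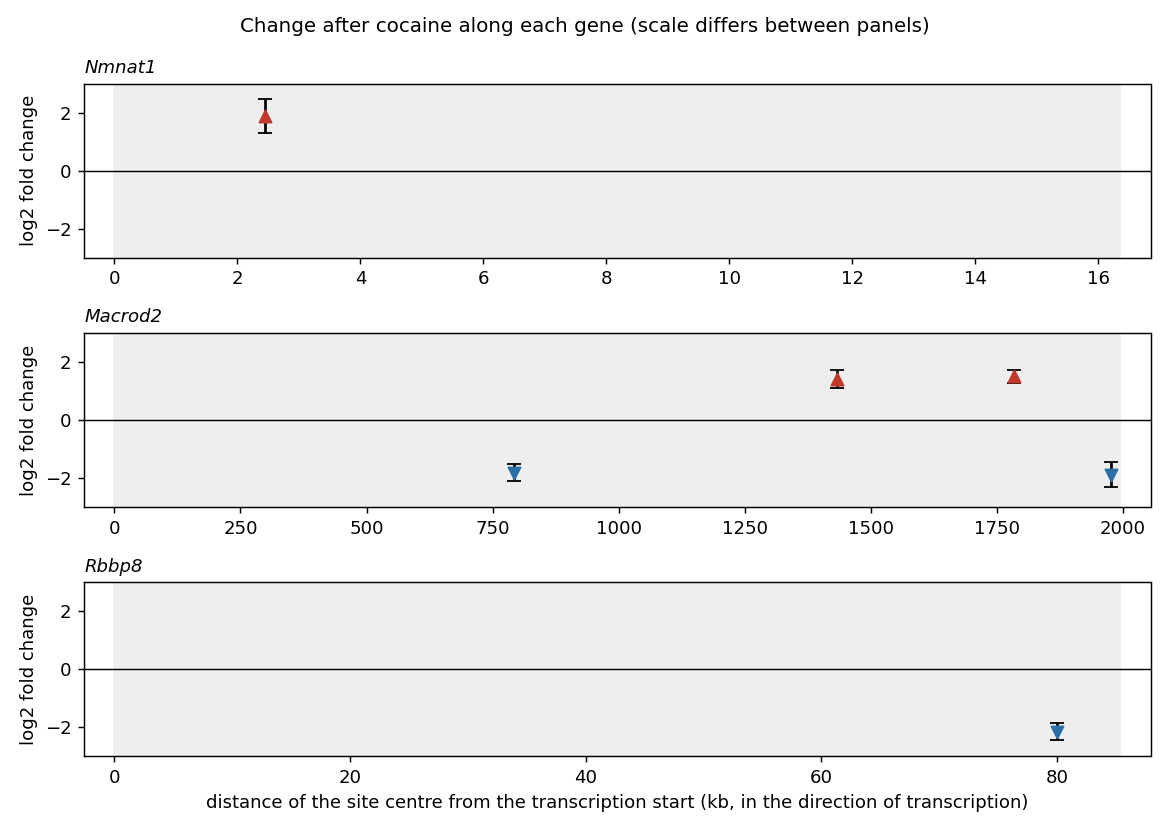
Log2 fold change of cocaine over saline on the log2(value + 1) scale (vertical axis, error bars SE) against the distance of each site from the start of its gene in kb (horizontal axis, a different scale in each panel); grey marks the gene, red upward triangles higher sites and blue downward triangles lower sites. The SE is limma's moderated SE and can be smaller than counting error. The Macrod2 sites read lower, higher, higher, lower from start to end, at 792.3, 1433.6, 1783.8 and 1975.9 kb.

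The Macrod2 sites lay at 39.7, 71.9, 89.4 and 99.1% of the gene's length, so 3 of the 4 were nearer to its end than to its start, and site 4 was 18.7 kb from the end. Their centres were 641.3, 350.15 and 192.1 kb apart. The closest sites of opposite direction were sites 3 and 4. Before site 1 no listed site occurred for 9644.7 kb, and after site 4 the next was in Kif16b, a kinesin gene, 503.2 kb away and higher after cocaine.

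Added over the 4 sites, the Macrod2 signal was 41.1 and 48.9 normalized reads in the cocaine replicates, against 40.35, 40.1 and 44.75 in the saline replicates. The groups overlapped on this sum, although they were apart at each site. Sites 2 and 3 held 90.0 and 79.1% of the sum in the cocaine replicates, against 34.2, 25.0 and 31.7% in the saline replicates. Selection of the sites on this contrast fixes the direction of these shares. The sum holds listed sites alone, 2 higher and 2 lower, so the overlap on it says nothing about the gene as a whole.

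The authors' enrichment at the higher Macrod2 sites was 2.96 after cocaine and 1.09 after saline at site 2, and 1.69 after cocaine and 0.56 after saline at site 3. At the lower sites it was 0.38 after cocaine and 1.64 after saline at site 1, and 0.32 after cocaine and 1.35 after saline at site 4. Site 1 and site 4 were therefore below the authors' background after cocaine and modestly above it after saline, and site 3 was below it after saline.

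**Figure D3:**
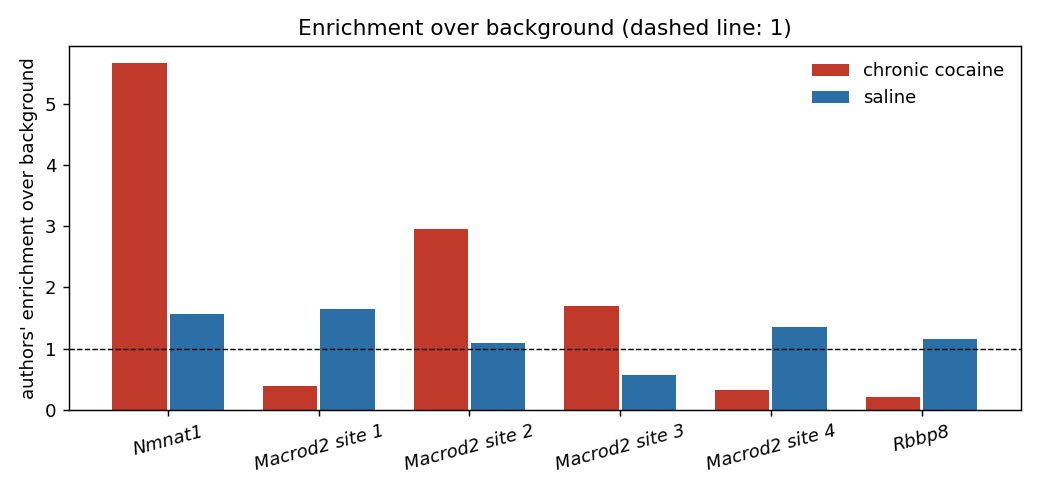
The authors' enrichment over background (vertical axis, a ratio) at the 6 sites, with cocaine bars in red left of saline bars in blue; 1 value per group was deposited, so there are no error bars. Nmnat1 stands at 5.67 after cocaine, and the 3 lower sites at 0.20 to 0.38.

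Macrod2 was the third longest of the 688 genes with a listed site. Genes over 1 Mb with a site numbered 20, a length limit chosen after the values were seen. The other 19 held 28 sites, 24 higher and 4 lower, at 0.45 to 2.73 sites per Mb with a median of 0.91, against 2.01 for Macrod2. None of those 19 held 4 or more sites. Over all 688 genes 635 held exactly 1 site, and genes under 1 Mb were not compared with Macrod2 by number of sites. Sites in both directions occurred in 2 of the 688 genes, Macrod2 and Erbb4, the gene of a neuregulin receptor with 1 site each way. More than 1 lower site also occurred in 2 genes, Macrod2 and Lrp1b, the gene of a large lipoprotein receptor, with 2 each. Erbb4 and Lrp1b were named after their values were seen, and both exceed 1 Mb. Longer genes have more room for sites, and no test by length was made.

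Rbbp8, the gene of the end-resection factor, held 1 site, at positions 11895801 to 11896800 of chromosome 18 in mm9. The gene (transcript NM_001081223, plus strand) spans 85.4 kb, and the site lies in the gene body 79.95 kb from the start and 5.42 kb from the end, at 93.7% of its length. It had 1.64 and 3.41 normalized reads in the cocaine replicates, against 13.80, 14.59 and 14.19 in the saline replicates. Both cocaine values, from 2 and 3 reads, were far below the saline values, which came from 13, 16 and 13 reads. The mean was 2.525 ± 1.25 after cocaine (SD, n = 2) and 14.2 ± 0.40 after saline (SD, n = 3). That is 5.62-fold lower after cocaine, with a counting interval of 2.36-fold to 19.3-fold, and a log2 fold change of -2.15 ± 0.30 (SE). Without cocaine replicate 1 it was -1.78 and without cocaine replicate 2 it was -2.52.

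By size of the authors' deposited log2 fold change, -2.49, Rbbp8 was first of the 22 lower sites in or near genes and 6th of the 91 lower sites with a mean count under 100. Macrod2 sites 1 and 4 were 7th and 10th of those 22. Rbbp8's enrichment in the authors' table was 0.20 after cocaine and 1.16 after saline, so the saline libraries stood close to background there. The background level behind it was 12.65 normalized reads after cocaine and 12.2 after saline, the highest of the 6 sites. The nearest listed sites, in Esco1, the gene of a cohesin acetyltransferase, 1295.7 kb before, and in Zfp521, the gene of a zinc finger protein, 1985.4 kb after, were both higher.

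**Figure D4:**
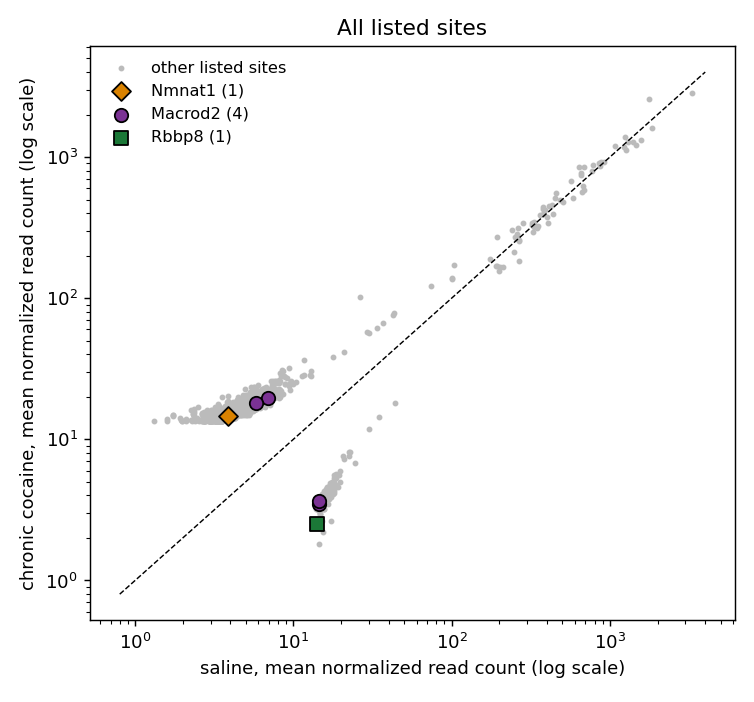
Mean normalized read count after cocaine (vertical axis, log scale) against saline (horizontal axis, log scale) for all 1727 listed sites in grey, with Nmnat1 as a diamond, Macrod2 as circles and Rbbp8 as a square; the dashed line marks equal counts. The 3 higher sites lie in the dense upper band of low-count sites, and the 3 lower sites lie in the small lower band, with Rbbp8 near its lower edge.

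At Nmnat1, Macrod2 site 1 and Rbbp8, a count of the higher group equalled the lowest that listed sites of low count showed. Among higher sites with a mean count under 100, the lowest cocaine counts were 13.14 and 13.64 in the 2 replicates, and Nmnat1 had 13.14 in the first. Among lower sites the lowest saline counts were 12.74, 13.68 and 14.19 in the 3 replicates. Macrod2 site 1 had 12.74 in the first saline replicate and Rbbp8 had 14.19 in the third. Small SDs so close to the listing limit do not measure how well replicates repeat. In normalized reads, cocaine replicate 2 exceeded replicate 1 at all 6 sites, and at 58.0% of the 1727 sites. Among sites with a mean count under 100 it did so at 58.8% of the higher and 41.8% of the lower ones. Before scaling, replicate 2 had fewer reads than replicate 1 at the higher members: 16 and 14 in replicates 1 and 2 at Nmnat1, 23 and 18 at Macrod2 site 2, 22 and 16 at site 3. At the lower members it had more: 3 and 4 at Macrod2 site 1, 2 and 5 at site 4, 2 and 3 at Rbbp8. A read counted 0.822 in replicate 1 and 1.14 in replicate 2.

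Over the 5 libraries on the log2(value + 1) scale, the genes whose listed sites had the most similar values were found among the 687 other genes with a site, by Euclidean distance. For Nmnat1 they were Bcas1 at a distance of 0.41 and Slc24a4 at 0.42. For Macrod2 site 1 they were Lrp1b at 0.36 and the casein gene Csn1s2b at 0.47, and for site 4 they were Csn1s2b at 0.48 and Rbbp8 at 0.61. For Macrod2 site 2 they were 1700123I01Rik at 0.31 and Gm13078 at 0.35, and for site 3 Cpn1 at 0.11 and Sema4f at 0.22. For Rbbp8 the most similar gene was Macrod2, through site 1, at 0.54, followed by Lrrc40 at 0.71. The distances between Rbbp8 and the Macrod2 sites were larger than most of the others given here. The 3 lower sites each had 5 to 7 cocaine reads in all, against 42 to 43 saline reads. With so few reads many sites have nearly the same values.

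Other genes of the same pathways were counted from lists of genes for NAD synthesis and use, for ADP-ribose addition, for its removal and reading, and for DNA repair, 183 genes besides Nmnat1, Macrod2 and Rbbp8. Of these, 1 gene (0.55%) had a listed site and 182 had none. With the 3 genes counted, 4 of 186 genes had a listed site. The 3 had been chosen from genes with a listed site, so leaving them out lowers the share by construction. Of the 21900 protein-coding genes of RefSeq, 672 (3.07%) matched a gene with a listed site. The difference between the shares was not tested, and nothing is read from it. The 23 genes of ADP-ribose addition, Parp1 itself and the tankyrases Tnks and Tnks2 included, had 0 sites, and so did the 14 end-joining genes, the 22 of base excision and strand break repair and the 38 of nucleotide excision, mismatch and crosslink repair and translesion synthesis. Nmnat1 was the only one of 32 NAD genes and Macrod2 the only one of 17 removal and reading genes with a site, and Parg and Macrod1 had none. A gene with no listed site may still bind PARP-1, since the table holds only sites that the authors listed from their comparison of cocaine with saline.

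Bard1, which encodes the partner of BRCA1 in homologous recombination, was the 1 list gene with a site besides Nmnat1, Macrod2 and Rbbp8. It lay in the gene body on chromosome 1 (71098301 to 71099700, 50.5 kb from the start) and had 23.00 and 20.45 normalized reads in the cocaine replicates, against 3.19, 7.29 and 6.55 in the saline replicates. Both cocaine values were more than 13 normalized reads above the highest saline value. Bard1 rose 3.83-fold after cocaine, to 21.7 ± 1.8 normalized reads (SD, n = 2), against 5.68 ± 2.19 after saline (SD, n = 3), with a log2 fold change of 1.83 ± 0.36 (SE) and a Benjamini-Hochberg adjusted p of 0.00636 over all 1727 sites in limma. This was 1 site called of 1 listed in these other genes, and 90.2% of all listed sites passed in this direction (95.5% in either), so the call says little about Bard1. Leaving out each replicate gave an adjusted p of 0.00605 to 0.0561 in limma, with 0.0511 without cocaine replicate 1 and 0.0561 without cocaine replicate 2. Bard1 and Rbbp8, both of the list of end resection and homologous recombination, thus had values on opposite sides, 3.83-fold higher and 5.62-fold lower after cocaine.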

How the data were processed

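PARP-1 ChIP-seq of nucleus accumbens was measured in pools of 10 mice, with the antibody ab6079 per the labels' protocols. The submitters' processing notes name mm9 and CASAVA 1.8.2. The aligner, duplicate handling and listing threshold are not given in the sources used here. The deposited table, named after diffReps and a negative binomial test, holds for each site the authors' normalized read counts per replicate, joined in 1 cell. Its deposited averages give each group's signal as the mean of those counts. Enrichment was deposited as a ratio to a background level that is not described. The authors' log2 fold change is cocaine over saline, and the deposited p-value columns are the authors' own.

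Replicates carry no labels in the table, so their numbers give only their order. Of 8635 values, 100.0% were whole multiples of 1 read within 0.1 read. limma 3.58.1 (R 4.3.3) was fitted on log2(value + 1) over all 1727 sites, with Benjamini-Hochberg adjustment and a threshold of 0.05. It was checked on simulated reads. Fold changes on this scale understate changes at low counts. All sites had been selected by the authors on these same libraries, so a call is no independent evidence and a fold change can be overstated. p-values measure the spread between these pools only. The members, gene lists and tests were chosen with earlier results of these data known. The rule for genes named with values took the 3 genes, list genes with a site and the 2 genes most like each site, and gave listed sites next to the members by position. Erbb4 was added after its values were seen, and other genes are named only as overlapping annotations or as list genes with no site. The planned count models were replaced by an exact conditional binomial test on recovered reads. RefSeq promoters were matched by symbol for 2 of the 3 genes.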

Additional observations from a re-analysis of the deposited data

How the results depend on the processing

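The 6 sites kept their direction in all 60 recomputed log2 fold changes, over 10 alternatives each. Of these, 50 moved by less than 1 SD, taken as limma's moderated SD of the site between replicates. A pseudocount of 4 gave -1.31 and -1.33 at Macrod2 sites 1 and 4, 1.18 at Macrod2 site 3 and -1.49 at Rbbp8, since a larger pseudocount draws low counts together by its construction. Leaving out 1 replicate at a time gave log2 fold changes of -2.16 to -1.48, 1.19 to 1.58, 1.45 to 1.58 and -2.56 to -1.22 at Macrod2 sites 1 to 4, 1.38 to 2.38 at Nmnat1, -2.52 to -1.78 at Rbbp8 and 1.52 to 2.01 at Bard1. limma passed 1649 of the 1727 sites, and 0 to 1651 when 1 replicate was left out. It passed 794 without cocaine replicate 1 and 0 without cocaine replicate 2, with 1248 sites at an unadjusted p under 0.05 in the last case and a smallest adjusted p of 0.0561. Both fits had a single cocaine sample, assumed to vary like the saline samples. The pathway lists held 7 sites, of which limma passed 7, and 0 to 7 when 1 replicate was left out, with 3 without cocaine replicate 1. Of these 7, 6 had been selected on the same values, so the count is no test of them. The exact conditional test on recovered reads, added after seeing the data, passed 1696 sites. The planned edgeR and DESeq2 fits were not run. No paired analysis was possible because the replicate values in the table carry no labels that link a cocaine pool to a saline pool. Depth limits the lower values most: the cocaine counts at the lower sites rest on 5 to 7 reads in all.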

Other observations

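The background level implied by the authors' enrichment differed between the 2 classes of sites in the table. Its median was 6.15 normalized reads after cocaine and 5.96 after saline at the 1605 higher sites, and 12.8 after cocaine and 12.3 after saline at the 122 lower sites. The 6 sites followed the same order only in part. Nmnat1 and Macrod2 site 2 had 2.56 and 6.65 after cocaine, and Rbbp8, Macrod2 site 4 and Macrod2 site 1 had 12.65, 11.4 and 9.21, while Macrod2 site 3, a higher site, had 10.7.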
